A study of Mus musculus with 4 samples.

Results

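Prdm1, Tfap2c, Dppa3, Nanos3 and Dnd1 are regulators of the specification and survival of primordial germ cells, from which eggs and sperm descend. The 5 genes were chosen by name, and each was represented by 1 probe, found through its RefSeq accession, among 41174 probes that covered 18327 named genes. The probes of 4 of the 5 were bright enough to enter the comparison of genotypes, and that of Nanos3 was not.

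Germ cell fate in the mouse is set in the early embryo by BMP signals, which induce Prdm1 in a few epiblast cells. Prdm1 encodes Blimp1, a zinc finger repressor of somatic genes, and acts with Prdm14 and with Tfap2c, which encodes the transcription factor AP-2 gamma. Dppa3, also called Stella, marks the specified cells, while Nanos3 and Dnd1 encode RNA-binding proteins without which germ cells are lost. Prdm1 is also used outside the germ line, for example in plasma cells and in several embryonic tissues.

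The tested embryos were HP1 gamma -/-, carrying a null allele made by a modified gene-trap method in Cbx3, which encodes the heterochromatin protein HP1 gamma, and the comparison embryos were wild-type at that gene. Embryos of both genotypes carried a Blimp1-mVenus transgene, and mVenus-positive cells were sorted from genital ridges at embryonic day 11.5. Each of the 2 RNA pools per genotype came from 5 or 6 embryos, with about 500 to 3500 sorted cells per embryo, and was hybridised to its own one-colour array. The sorting gate was therefore the reporter of Prdm1 alone, and germ cell identity rests on the other genes.

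Levels are log2 signals relative to the 75th percentile of the array, which lay at 125 and 291 intensity units on the HP1 gamma -/- arrays and at 188 and 219 on the wild-type arrays. Precision is limited by having 2 arrays per genotype. In simulated data of that size limma recovered 0% of 2-fold and 5.8% of 4-fold changes. A gene that did not pass may therefore still differ by such folds. Array by array, 53.3% to 63.3% of spots were well above background, the scanner software's mark for a spot clearly brighter than its surroundings. Cbx3, the targeted gene, had levels of -1.95 and -1.59 in HP1 gamma -/- pools, against 4.80 and 5.07 in wild-type pools, by 1 of its 2 probes (limma adjusted p = 0.044). The brighter probe read -1.24 and -2.78 against 5.89 and 5.72 and did not pass (adjusted p = 0.099). Limma called 2 of 22440 probes, 0 higher and 2 lower in HP1 gamma -/-, and 1685 had an unadjusted p under 0.05. With arrays scaled to spiked-in RNA the calls were 111 higher and 35 lower. Of 9 germ cell markers, 7 had a named probe, and 7 and 1 of these were well above background in HP1 gamma -/- replicates 1 and 2, against 6 and 6 in wild-type replicates 1 and 2. The germ cell markers thus go against the label of HP1 gamma -/- replicate 2, where Dppa3, Pou5f1, Ddx4, Dazl, Nanos3 and Sox2 were not well above background, and the regulators' differences and the list medians that shift are also given without that pool.

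Prdm1 was measured well above background in all 4 pools, and its range of 0.83 log2 units was the narrowest of the 5 genes. Its probe read 348 and 455 intensity units on HP1 gamma -/- arrays 1 and 2, against 443 and 528 on wild-type arrays 1 and 2. Relative to the arrays' own 75th percentiles, its levels were 1.48 and 0.65 in HP1 gamma -/- pools, against 1.24 and 1.27 in wild-type pools. The wild-type pools lay between the HP1 gamma -/- pools, so the groups overlapped. The HP1 gamma -/- pools differed 1.78-fold, and 20.7% of all tested probes had these pools as far apart. The means were 1.06 ± 0.59 in HP1 gamma -/- and 1.26 ± 0.02 in wild-type (SD, n = 2 each), a log2 difference of -0.19 with a 95% interval from -1.09 to 0.71 (limma adjusted p = 0.95). The difference was -0.61 without HP1 gamma -/- replicate 1 and 0.23 without replicate 2, so its sign depended on the pool used.

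Tfap2c, the AP-2 gamma gene, differed far more between the 2 HP1 gamma -/- pools than between genotypes. Its probe read 578 and 2.79 intensity units in HP1 gamma -/- pools, against 116 and 54.0 in wild-type pools. These are levels of 2.21 and -6.70 in HP1 gamma -/-, against -0.69 and -2.02 in wild-type. HP1 gamma -/- replicate 1 was the brightest pool and replicate 2 the dimmest, where the probe was not well above background, so 1 of the 2 HP1 gamma -/- arrays measured the gene. In bulk RNA, here and below, fewer cells of a type and less RNA per cell cannot be told apart. Tfap2c was at least 133-fold higher in HP1 gamma -/- replicate 1 than in replicate 2, taking the lowest signal well above background as the floor. The genotype difference was -0.89 with a 95% interval from -9.01 to 7.23 (limma adjusted p = 0.98). As measured it was -5.35 without HP1 gamma -/- replicate 1 and 3.57 without replicate 2. Both -0.89 and -5.35 rest in part on the value of -6.70 in replicate 2, not well above background, so their sizes are not measured. With normexp background correction, which here adds 50 units to each signal, the genotype difference was 0.55.

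Dppa3, the Stella gene, had the widest range of any of the 22440 probes tested, 10.62 log2 units over the 4 arrays. Its signal was 1490 and 2.21 intensity units in HP1 gamma -/- pools, against 570 and 183 in wild-type pools, or levels of 3.58 and -7.04 against 1.60 and -0.26. As with Tfap2c, the 2 wild-type pools lay between the HP1 gamma -/- pools, and HP1 gamma -/- replicate 2 was not well above background. With values below background set to the lowest level well above it on their array, the range of Dppa3 was 8.42 and ranked 6 among the probes tested, and that of Tfap2c was 7.06 and ranked 8. Dppa3 was at least 343-fold higher in HP1 gamma -/- replicate 1 than in replicate 2. The genotype difference was -2.40 with a 95% interval from -12.11 to 7.30 (limma adjusted p = 0.94). As measured it was -7.71 without HP1 gamma -/- replicate 1 and 2.91 without replicate 2. The lowest level well above background in replicate 2 was -4.84. Both -2.40 and -7.71 rest in part on the value of -7.04 there, so their sizes are not measured. With normexp background correction the genotype difference was -0.23 and the range 5.56.

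Dnd1, whose product binds messenger RNAs and is needed for germ cell survival, was well above background in every pool. The signal was 426 and 70.3 intensity units in HP1 gamma -/- pools, against 124 and 74.7 in wild-type pools, and the levels were 1.77 and -2.05 against -0.59 and -1.55. The order of the pools was the same as for Tfap2c and Dppa3, with a smaller spread of 3.82 log2 units. HP1 gamma -/- replicate 1 exceeded replicate 2 by 14.1-fold. The genotype difference was 0.94 with a 95% interval from -2.64 to 4.51 (limma adjusted p = 0.93). It was -0.98 without HP1 gamma -/- replicate 1 and 2.85 without replicate 2.

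Nanos3, a partner of the Pumilio proteins and of the deadenylase that shortens messenger RNA tails, was well above background in 1 pool of the 4. Its probe read 27.7 and 10.2 intensity units in HP1 gamma -/- pools, against 8.91 and 5.85 in wild-type pools. The reading of 27.7 units, in HP1 gamma -/- replicate 1, was the one well above background, and the levels were -2.17 and -4.83 against -4.39 and -5.23. The probe was not tested, since testing required both arrays of a genotype to lie well above background. Nanos3 was at least 6.34-fold higher in HP1 gamma -/- replicate 1 than in replicate 2. Without a filter on dim probes its difference was 1.31 with a 95% interval from -1.38 to 4.00 (limma adjusted p = 0.94). At this signal no order among the other 3 pools can be read.

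**Figure D1:**
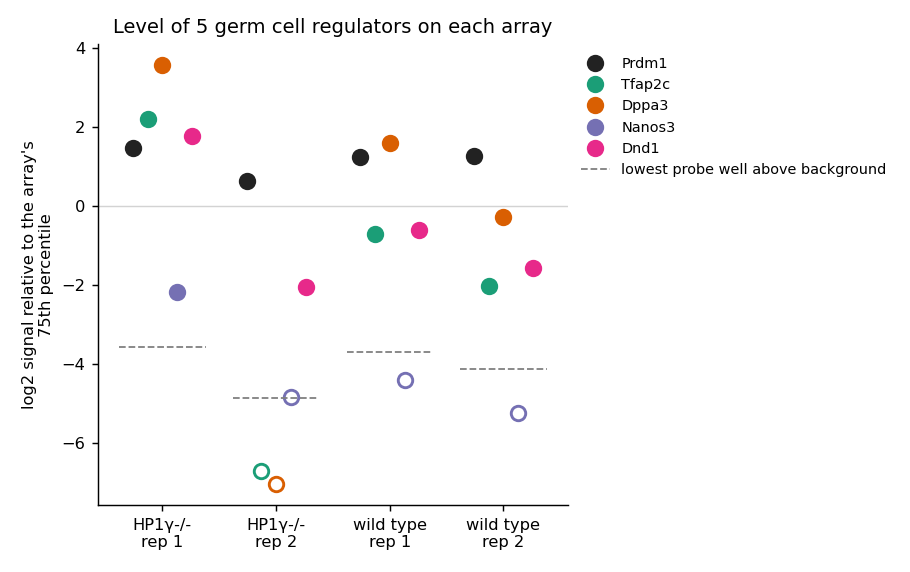
Log2 signal of the probe of each gene relative to the 75th percentile of the array (y axis) in the 2 HP1 gamma -/- pools and the 2 wild-type pools (x axis). Filled points are well above background, open points are not, and dashed lines mark the lowest level well above background on each array. Prdm1 stays between 0.65 and 1.48, while Dppa3 and Tfap2c lie at 3.58 and 2.21 in HP1 gamma -/- replicate 1 and below the dashed line in replicate 2. Heights of different genes come from different probes and are not to be compared.

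The sequence before the start site is shown for Prdm1, the gene whose reporter was sorted on, and for Nanos3, the regulator measured in 1 pool. Both are the 250 bases before a RefSeq start site of GRCm38.p6, on the minus strand, at chr10:44458749-44458998 for Prdm1 and chr8:84176553-84176802 for Nanos3. Capitals mark matches, on either strand, to the AP-2 site GCCNNNGGC, the Prdm1 core GAAAGTG, the octamer ATGCAAAT, the GC box GGGCGG, the TATA box TATAAA and the CCAAT box.
Prdm1: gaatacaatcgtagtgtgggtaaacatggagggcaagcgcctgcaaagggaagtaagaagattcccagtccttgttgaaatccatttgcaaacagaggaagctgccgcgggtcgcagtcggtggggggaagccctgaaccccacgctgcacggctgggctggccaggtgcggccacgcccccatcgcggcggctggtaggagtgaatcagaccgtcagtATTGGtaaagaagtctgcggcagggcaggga
Nanos3: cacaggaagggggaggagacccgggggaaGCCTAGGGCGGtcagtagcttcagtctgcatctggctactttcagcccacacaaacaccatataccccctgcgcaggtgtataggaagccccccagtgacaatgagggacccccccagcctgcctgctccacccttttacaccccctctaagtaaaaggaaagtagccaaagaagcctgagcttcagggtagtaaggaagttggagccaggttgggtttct
The Nanos3 window held an AP-2 match from 221 to 213 bases before the start, overlapping a GC box match from 216 to 211. The Prdm1 window held a CCAAT match on the other strand, from 31 to 27 bases before the start. Among 32851 windows of the same length, 13.7% held the AP-2 letters, 32.7% the GC box, 33.8% the CCAAT box, 4.01% the Prdm1 core, 1.60% the octamer and 12.4% the TATA box. The Prdm1 window held 15 CG pairs and the Nanos3 window 3, where the median window held 6. These matches are letters in a window and say nothing of binding.

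In this comparison of genotypes 0 of the 4 tested regulators passed the threshold, where 0.00891% of all probes did (0.00891% lower and 0% higher). None of the 4 tested regulators separated the genotypes without overlap, against 38.2% of all tested probes (15.1% higher and 23.0% lower in HP1 gamma -/-). The intervals for Dppa3 and Tfap2c span many log2 units in both directions, so these data bound neither a gain nor a loss. The plot of differences shows where each falls when an array is left out.

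**Figure D2:**
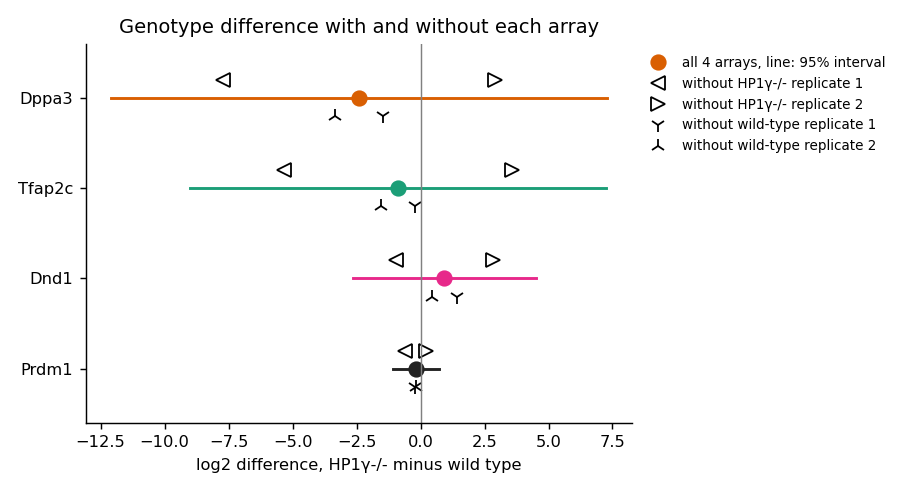
Log2 difference, HP1 gamma -/- minus wild-type (x axis), of the 4 tested genes (y axis). Coloured points are the limma estimates from all 4 arrays with 95% intervals, and black marks the estimates without 1 array. For Dppa3, Tfap2c, Dnd1 and Prdm1 the estimate without HP1 gamma -/- replicate 1 lies below 0 and that without replicate 2 above 0. Estimates for Dppa3 and Tfap2c that include replicate 2 use its values below background as measured.

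The reporter gene was then set against the other regulators within each array, since a ratio within an array does not depend on the scaling between arrays. Values not well above background were raised to the lowest level well above it on their array, which makes the difference a bound. Relative to Prdm1, HP1 gamma -/- replicate 1 exceeded replicate 2 by at least 7.59 log2 units for Dppa3, at least 6.22 for Tfap2c, at least 1.83 for Nanos3 and 2.99 for Dnd1. The same pool exceeded wild-type replicate 1 by 1.74 for Dppa3, 2.66 for Tfap2c, 2.13 for Dnd1 and at least 1.27 for Nanos3. It exceeded wild-type replicate 2 by 3.63, 4.02, 3.11 and at least 1.74 for the same genes. HP1 gamma -/- replicate 1 therefore had more of each regulator per Prdm1 signal than either wild-type pool. HP1 gamma -/- replicate 2 had less Dppa3 and Tfap2c per Prdm1 signal than either wild-type pool, with both genes below background there, while its Dnd1 ratio lay between those of the wild-type pools.

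The genotype difference of the ratio to Prdm1 was -2.21 for Dppa3, -0.70 for Tfap2c, 1.13 for Dnd1 and 1.50 for Nanos3 (n = 2 each). By the exact two-sided permutation test over arrays, p was 1.0 for Dppa3 and for Tfap2c, 0.667 for Dnd1 and 0.333 for Nanos3, and 0.333 is the smallest p that 2 arrays against 2 allow. These differences use the values as measured, below background for Dppa3 and Tfap2c in HP1 gamma -/- replicate 2 and for Nanos3 in every pool but HP1 gamma -/- replicate 1. Without HP1 gamma -/- replicate 1 the difference was at most -4.91 for Dppa3, at most -2.88 for Tfap2c and -0.37 for Dnd1, and Nanos3 was then measured in no pool. Without replicate 2 the differences were 2.68 for Dppa3, 3.34 for Tfap2c and 2.62 for Dnd1.

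**Figure D3:**
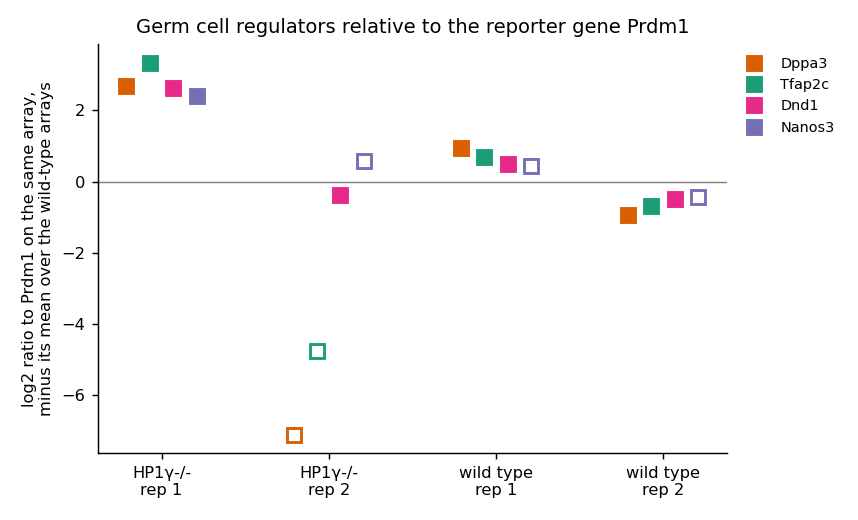
Log2 ratio of each regulator to Prdm1 on the same array, minus its mean over the wild-type arrays (y axis), in the 4 pools (x axis). Open squares are not well above background. All 4 genes lie above the wild-type pools in HP1 gamma -/- replicate 1, and Dppa3 and Tfap2c lie far below them in replicate 2.

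The wild-type pools also differed from each other, in the same direction for Dppa3, Tfap2c and Dnd1. Wild-type replicate 1 exceeded replicate 2 by 3.63-fold for Dppa3, 2.51-fold for Tfap2c and 1.94-fold for Dnd1, while the ratio for Prdm1 was 0.98. Among all tested probes, 0.481% differed between the wild-type pools by as much as Dppa3, 1.40% by as much as Tfap2c, 3.22% by as much as Dnd1 and 89.5% by as much as Prdm1. The median absolute difference of all probes was 0.42 log2 units between the HP1 gamma -/- pools and 0.16 between the wild-type pools. The order of pools shared by Dppa3, Tfap2c and Dnd1, with HP1 gamma -/- replicate 1 highest, then wild-type replicates 1 and 2, then HP1 gamma -/- replicate 2, held for 10.5% of tested probes. It was the most frequent of the 24 possible orders. In range, 33.4% of probes varied as widely as Prdm1, and 1.16% as widely as Dnd1.

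**Figure D4:**
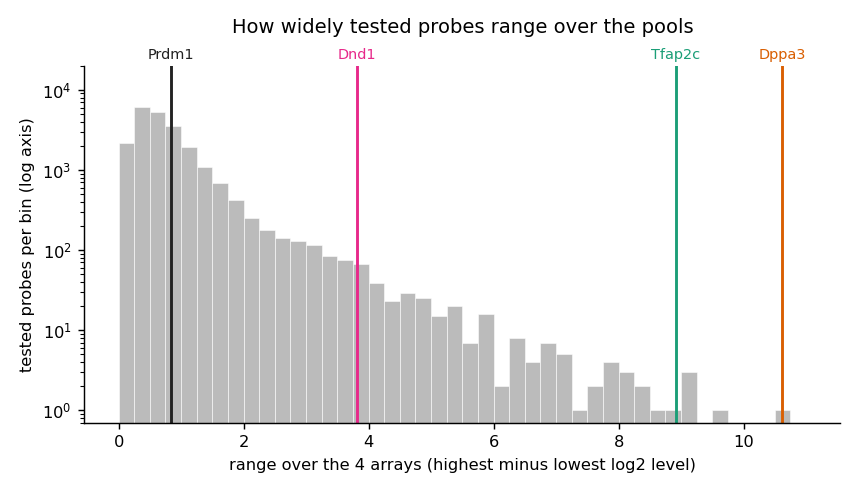
Number of tested probes (y axis, log scale) by their range over the 4 arrays, the highest minus the lowest log2 level (x axis), in bins of 0.25. Coloured lines mark the tested regulators. Prdm1 at 0.83 lies in the body of the distribution, whose median is 0.63, Dnd1 at 3.82 in its tail, and Tfap2c and Dppa3 at its far end.

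Among 11807 named genes compared, the patterns over the 4 arrays closest to the regulators were sought by the root mean square difference of centred log2 levels. Closest to Dppa3 were Rhox9 at 0.53 and Rhox6 at 0.84, both homeobox genes of the X chromosome, and Tex19.1, a germ cell gene, at 0.69, followed by Tfap2c itself at 0.98. Closest to Tfap2c were Rhox6 at 0.18, Dppa5a, a gene of pluripotent cells, at 0.30 and Tex19.1 at 0.33. Closest to Dnd1 were Gldc, the glycine decarboxylase gene, at 0.05, Hook1, which encodes a microtubule linker, at 0.07 and Rhox5 at 0.13. Closest to Prdm1 were Elk4 at 0.01, Vrk1 at 0.02 and Atg5 at 0.02. Atg5, an autophagy gene, is the nearest protein-coding neighbour of Prdm1 in the RefSeq gene table. However, 8757 genes lay within 0.5 of Prdm1, against 37 for Dnd1, 7 for Tfap2c and 0 for Dppa3, so likeness to Prdm1 singles out little. Dppa3, Tfap2c, Rhox9, Rhox6 and Tex19.1 were not well above background in HP1 gamma -/- replicate 2, so their distances rest in part on values below background.

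Most other germ cell genes of the same stage varied widely, as Dppa3 and Tfap2c did. Of 21 tested, 17 ranged over more than 2 log2 units, where 5.62% of all probes did, and 14 had the pool order of Dppa3. The level was higher in HP1 gamma -/- replicate 1 than in replicate 2 for 20 of the 21, by a median of 4.70 as measured, where the median of all probes was 0.07. In replicate 2, 9 of the 21 were not well above background, and with these at the lowest level well above it the median was 3.82. Of the 12 measured in both pools 11 were higher in replicate 1, by a median of 2.07. The pluripotency gene Pou5f1 (Oct4) read 0.92 and -5.33 in HP1 gamma -/- pools, against -1.73 and -3.34 in wild-type pools. Rhox9 read 4.79 and -4.94 against 2.23 and 0.85, and Rhox6 3.89 and -5.36 against 0.98 and -0.17. In each of these genes HP1 gamma -/- replicate 1 was the highest pool and replicate 2 the lowest, not well above background. The germ cell helicase gene Ddx4 read 0.66 and -6.73 against 0.19 and -1.32. Dazl, which encodes a germ cell translation regulator, read -2.15 and -5.91 against -0.45 and -3.02, so wild-type replicate 1 was its highest pool.

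Not every gene of that list followed. Ifitm1, a membrane protein gene, read 3.14 and 2.08 in HP1 gamma -/- pools, against 1.77 and 0.73 in wild-type pools, and was higher without overlap (limma adjusted p = 0.68). Fut4 read -1.55 and -1.25 against -0.93 and -0.87 and was lower without overlap (adjusted p = 0.71). The genotypes did not overlap for 4 of the 21, or 19.0%, against 38.2% of all probes. Of the 21 genes 8 had higher and 13 lower means in HP1 gamma -/-, with a median difference of -0.28 (0.27 with normexp background correction) against -0.06 for all probes, and 0 passed the test. The median difference was -2.32 without HP1 gamma -/- replicate 1 and 2.18 without replicate 2.

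Genes whose products work with these regulators but are used in most cells did not range widely, like most probes. Of 9 tested genes of Prdm1 partners and its core network 0 ranged over more than 2 log2 units, where 5.62% of all probes did. Their median range was 0.45, against 0.63 for all probes. Of the 9, 0 passed the test, and 6 had higher and 3 lower means in HP1 gamma -/- (median difference 0.15, and 0.05 without HP1 gamma -/- replicate 2). The genotypes did not overlap for 6 of the 9, or 66.7%, 5 higher and 1 lower, against 38.2% of all probes. Cbfa2t2, which encodes a corepressor partner of Prdm14, read 2.39 and 2.30 in HP1 gamma -/- pools, against 2.08 and 1.84 in wild-type pools. The Groucho corepressor gene Tle4 read 3.67 and 3.51 against 3.34 and 3.24, and both were among the 5 (limma adjusted p = 0.78 and 0.82). Tle3 and the deacetylase gene Hdac2 ranged most widely, by 1.12 and 1.08. Prdm14 had no named probe.

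The partners of Nanos and Dnd1 did not range widely either. Of 14 tested, among them the Pumilio genes and subunits of the CCR4-NOT deadenylase, 0 ranged over more than 2 log2 units (5.62% of all probes did). The median range was 0.43, against 0.63 for all probes. Of the 14, 6 had higher and 8 lower means, with a median difference of -0.04 (0.05 without HP1 gamma -/- replicate 1). Apobec3, an antiviral deaminase gene, read -1.96 and -1.57 in HP1 gamma -/- pools, against -2.61 and -2.28 in wild-type pools (limma adjusted p = 0.67). The CCR4-NOT subunit gene Cnot10 read 0.32 and 0.39 against -0.01 and -0.06 (adjusted p = 0.75), and Cnot6 ranged by 1.03. Apobec3 and Cnot10 were among 6 of the 14, or 42.9%, whose genotypes did not overlap, near the 38.2% of all probes.

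Among 15 tested genes of germ cell survival and migration, 9 had higher and 6 lower means in HP1 gamma -/-, with a median difference of 0.08 (-0.05 without HP1 gamma -/- replicate 2), and 0 passed the test. Kitl, the ligand of the Kit receptor, read 0.84 and 0.88 in HP1 gamma -/- pools, against 1.41 and 1.55 in wild-type pools, a difference of -0.62 without overlap (limma adjusted p = 0.61). It was among 6 of the 15, or 40.0%, whose genotypes did not overlap, near the 38.2% of all probes. Tdgf1, a Nodal coreceptor gene, ranged by 4.77 as measured and was lowest in wild-type replicate 2, at -6.03, not well above background there. With that value set to the lowest level well above background on its array, the range of Tdgf1 was 2.85. Cxcl12, the chemokine that guides migrating germ cells, read 1.41 and 5.37 in HP1 gamma -/- pools, against 2.39 and 1.90 in wild-type pools, and was thus highest where Dppa3 was lowest. Kit, and the pluripotency gene Nanog, had no named probe.

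Of 10 tested upstream signals 3 had higher and 7 lower means, with a median difference of -0.16, and 0 passed. That median was -0.36 without HP1 gamma -/- replicate 2 and -0.07 without wild-type replicate 1. The BMP receptor gene Bmpr1a read 0.30 and 1.03 in HP1 gamma -/- pools, against -0.32 and -0.65 in wild-type pools (limma adjusted p = 0.57). The ligand gene Bmp2 read -2.01 and -2.49 against -1.69 and -1.60 (adjusted p = 0.69). Lin28a, an RNA-binding regulator of Prdm1 through let-7, read -0.37 and -5.02 against -3.28 and -3.35 (not well above background in HP1 gamma -/- replicate 2), and Bmp4 -3.32 and 0.05 against -1.78 and -2.06. Lin28a was highest and Bmp4 lowest in HP1 gamma -/- replicate 1, and the converse held in replicate 2.

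Most tested genes that Prdm1 represses in nascent germ cells, or that mark the same somatic programme, did not follow the germ cell genes. Of 9 tested 0 passed, and 0 ranged over more than 2 log2 units, where 5.62% of all probes did. Of the 9, 6 had higher and 3 lower means, with a median difference of 0.18. That median was 0.50 without HP1 gamma -/- replicate 1 and -0.01 without replicate 2. Tbx2 read -0.54 and 0.12 in HP1 gamma -/- pools, against -0.65 and -1.01 in wild-type pools, and Snai1 -0.47 and 0.12 against 0.40 and 0.35 (limma adjusted p = 0.75 for each). Meis1 ranged by 1.90. Msx2, untested because 1 array of each genotype was well above background, read -0.44 and -6.90 against -4.32 and -4.00. Like Dppa3, it was highest in HP1 gamma -/- replicate 1 and lowest in replicate 2.

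Markers of other cell types differed between the HP1 gamma -/- pools to unlike degrees. The median of replicate 1 minus replicate 2 was -3.02 for stromal, -0.37 for endothelial and 0.29 for leukocyte genes, where that of all probes was 0.07. The summed level of the 21 germ cell genes, as log2 of the sum of relative signals, was 8.27 and 4.34 in HP1 gamma -/- pools, against 6.37 and 5.22 in wild-type pools. Such sums rest mostly on the brightest genes. Here Dppa5a read 7.45 and -0.84 against 5.37 and 3.66, and Ifitm1, at 2.08, was the brightest in HP1 gamma -/- replicate 2. The median level of the 21 genes was 0.92 and -2.90 against -0.45 and -1.23. The 11 stromal genes summed to 3.68 and 6.48 against 4.70 and 3.46, highest in the pool with the least Dppa3. Among them Col1a2 read 1.65 and 5.47 against 3.39 and 2.08, and Col1a1 0.53 and 4.13 against 2.28 and 0.98. The 14 endothelial genes summed to 7.86 and 8.22 against 8.66 and 8.81. All 14 had lower means in HP1 gamma -/-, with a median difference of -0.67 (-0.47 without HP1 gamma -/- replicate 1 and -0.85 without replicate 2). The genotypes did not overlap for 13 of the 14, or 92.9%, against 38.2% of all tested probes (23.0% lower). By limma's test 0 passed, and 6 had an unadjusted p under 0.05, where 7.51% of all tested probes did. The 13 leukocyte genes summed to 8.22 and 7.95 against 8.23 and 8.47. The endothelial genes Egfl7 and Robo4 and the macrophage genes Tyrobp and Aif1 lay above 5 on every array.

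The 5 gonadal somatic genes tested of 13 with a probe summed to 2.65 and 3.42 in HP1 gamma -/- pools, against 2.26 and 1.89 in wild-type pools, Cbx2 and Wt1 among them. Of all 13, 5 and 12 were well above background in HP1 gamma -/- replicates 1 and 2, against 5 and 6 in wild-type replicates 1 and 2. Over all spots the shares well above background were 53.8% and 63.3% on these HP1 gamma -/- arrays, against 53.3% and 56.7%. The 7 mesonephric genes, the keratin genes Krt18 and Krt8 among them, summed to 4.93 and 3.29 against 1.41 and 1.01, while Pax2 and Pax8 were well above background nowhere. The 5 erythroid genes, Epor and Hbb-y among them, summed to 1.41 and 2.12 against 1.71 and 1.94, with Gata1 and Klf1 below background in all 4 pools. The part of these other cell types in the levels of the 5 regulators was not tested.

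**Figure D5:**
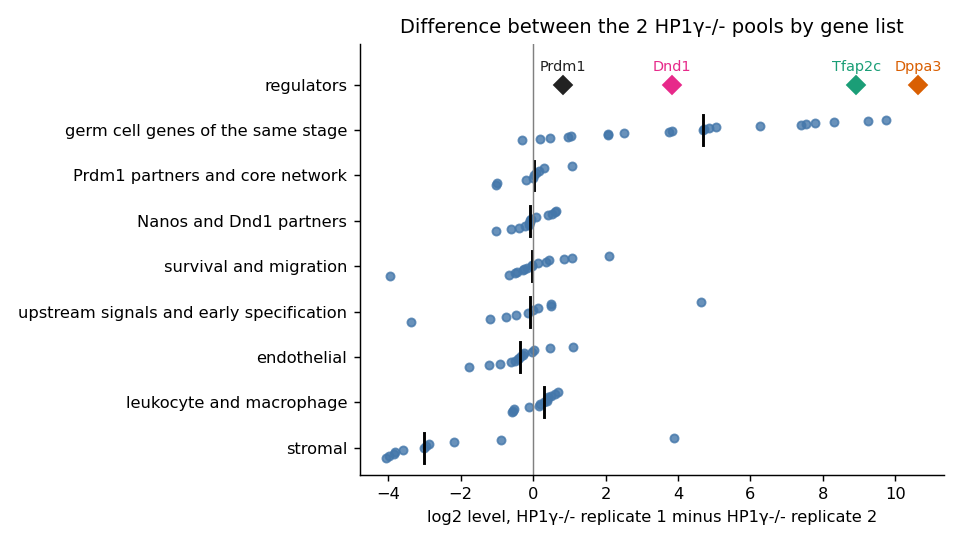
Log2 level in HP1 gamma -/- replicate 1 minus that in replicate 2 (x axis) for the tested regulators (diamonds) and the tested genes of 8 lists (points, with the median as a black bar). Germ cell genes lie to the right with a median of 4.70, stromal genes to the left with a median of -3.02, and both partner lists around 0. Values not well above background in replicate 2 are plotted as measured.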

How the data were processed

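Gene expression was measured on 4 Agilent one-colour arrays, 2 HP1 gamma -/- and 2 wild-type pools as their labels name them. Each labelling started from 4 ng of RNA and used Cy3, per the labels' protocols. Intensity values were made by Agilent Feature Extraction (version 10.7.3.1, per the submitters' processing notes and the file headers), with background subtracted within each array and no scaling between arrays. The value table the authors deposited repeats these intensity values rounded, within 0.50%, with medians of 15.9, 36.8, 22.9 and 25.2 for HP1 gamma -/- replicates 1 and 2 and wild-type replicates 1 and 2. Its linear scale and direction are thus known, and it was not centred. All arrays lay on 1 slide.

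Computed here were log2 values minus the array's 75th percentile over 43379 spots that are not controls. Spots with an outlier mark were left out (83 to 104 per array). Tested were 22440 probes that were well above background in both pools of at least 1 genotype, with limma 3.58.1 in R 4.3.3 (two-sided, p adjusted by Benjamini-Hochberg across these probes, threshold 0.05), after a check on simulated data. RefSeq accessions of GRCm38.p6 named 26888 probes, and a gene with several is given by its brightest. Sequences come from RefSeq's promoter table of GRCm38.p6, which matched 2 of the 5 genes. The files hold no mean spot signal, so normexp background correction used the median signal, with an offset of 50 units added.

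The 5 genes, the lists and the tests were chosen with earlier results of these data known. Named are the 5 genes, Cbx3, and per pathway list the 2 genes of smallest unadjusted p and the 2 of widest range. To these come 7 further germ cell genes where probes exist, the 3 closest patterns per tested gene and the 2 brightest genes of each cell type list. A gene that this rule names is not reported here. The labels describe the pools as independent, so p-values measure the spread between pools.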

Additional observations from a re-analysis of the deposited data

How the results depend on the processing

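No regulator passed the threshold under any of the alternatives run, and leaving out 1 or the other HP1 gamma -/- pool turned the sign of the differences of Prdm1, Tfap2c, Dppa3 and Dnd1. Leaving out 1 array in turn gave differences from -0.61 to 0.23 for Prdm1, -5.35 to 3.57 for Tfap2c, -7.71 to 2.91 for Dppa3 and -0.98 to 2.85 for Dnd1. Relative to Prdm1 the ranges as measured were -4.74 to 3.34 for Tfap2c and -7.10 to 2.68 for Dppa3. Those for Dnd1 and Nanos3 were -0.37 to 2.62 and 0.59 to 2.42. Here and in the differences above, the lower ends for Tfap2c and Dppa3 rest on values below background. Relative to Prdm1 these ends are known only as at most -2.88 and at most -4.91. For Nanos3 the lower end rests on no pool well above background, and the upper end in part on such pools. With normexp, chosen in this form after seeing that the files hold no mean signal, Tfap2c differed by 0.55 and its ratio to Prdm1 by 0.72. Dppa3 then differed by -0.23 and its ratio to Prdm1 by -0.06, and that of Nanos3 by 0.42. The ranges were 5.56 for Dppa3, 4.22 for Tfap2c and 1.15 for Nanos3. This setting adds 50 units to each signal, and Dppa3 and Tfap2c then both read -2.47 in HP1 gamma -/- replicate 2. The part of the added units in these shifts was not tested. Scaling to spiked-in RNA shifted the median of all probes to -0.61 from -0.06 and put both HP1 gamma -/- pools below both wild-type pools for Prdm1, with a difference of -0.74 (limma adjusted p = 0.32). Limma's count of called probes was 2 in the reported fit, 146 with spiked-in scaling, 7 with an intensity trend, 1 with probes measured on all arrays and 0 without a filter (1474 at an unadjusted p under 0.05). It was 0 to 0 without any 1 array, with 607 to 5644 at an unadjusted p under 0.05. With the replicate block it was 13, and the adjusted p of the 4 tested regulators lay between 0.95 and 1.0. Deviations of same-numbered pools correlated at 0.07 over probes, so the number alone does not pair them. A second Prdm1 probe could not be tried, as there is 1, and normexp on the mean signal was not run. Signal over background limits Nanos3 in 3 pools and Tfap2c and Dppa3 in HP1 gamma -/- replicate 2.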
